A study of Mus musculus with 11 samples.

Results

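A set of 10 immediate early genes was followed in RNA-seq libraries of the early postnatal mouse retina: Fos, Fosb, Junb, Ier2, Egr1, Egr2, Egr3, Nr4a1, Npas4 and Arc. They were taken by symbol from the 47069 Ensembl genes in each table of counts, all 10 were found, and all 10 were among the 18188 genes with enough counts to be tested. By its title, the study asked whether correlated retinal activity around birth is needed for visual axons to wire non-image-forming nuclei. The 11 libraries came from C57BL/6 retinas: 2 wild-type (WT) and 3 Brn3b-Kir2.1 libraries at postnatal day 4 (P4), and 3 of each genotype at P8. Brn3b-Kir2.1 mice carry a fusion of eYFP with the human potassium channel Kir2.1, behind a CAG promoter and a floxed stop cassette, together with Brn3b-cre, a Cre line named for a transcription factor of retinal ganglion cells. They are called Kir2.1 below. The labels differ on 3 points: the protocol names P11 where the age field has P8, Brn3b-cre mice where the genotype field has wild type, and no sorting step although the source field names retinal ganglion cells. All retinas, per that protocol, were dissociated with collagenase and trypsin for 20 minutes at 37 °C before RNA extraction, so every library holds whatever that step did to these genes, and its part in the values was not tested. Nothing in the labels says that the libraries of a group came from separate animals, so p-values measure the spread between these libraries, which may be technical.

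Immediate early genes are transcribed within minutes of a stimulus without new protein synthesis. In neurons, calcium entry and receptor signalling act through kinases on factors already bound to their promoters, mainly CREB at cyclic-AMP response elements (CRE) and serum response factor at CArG boxes, and the transcripts are short-lived. The same genes also respond to growth factors, injury and tissue handling, in glia, immune and vascular cells as well as in neurons. In whole-retina RNA, fewer cells expressing a gene and less RNA per cell cannot be told apart.

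Promoter sequence was printed for members with an entry in the RefSeq table (GRCm38.p6), because the results turn on whether these genes move together and these are the elements they are known to share. Of the 10 members, 6 matched (Fos, Fosb, Junb, Egr2, Nr4a1 and Npas4); Egr1, Egr3, Ier2 and Arc did not. Each window ran from 250 bases before to 50 after a start, and 5 motifs spelled in letters were searched on both strands: the CRE core TGACG, the full CRE TGACGTCA (which holds the core on each strand), the EGR site GCGTGGGCG, the AP-1 site TGANTCA and TATAAA, besides the CArG box. Shown are the stretches before the start that no annotated exon covers, 5′ to 3′ on the gene's strand, with CRE cores and CArG boxes in capitals. The Egr2 window is 1 of 5 listed for that gene, chosen after its matches were seen, and the Npas4 line holds the 30 bases round its pair of CRE cores.
Fos, chr12:85473640-85473889, plus strand: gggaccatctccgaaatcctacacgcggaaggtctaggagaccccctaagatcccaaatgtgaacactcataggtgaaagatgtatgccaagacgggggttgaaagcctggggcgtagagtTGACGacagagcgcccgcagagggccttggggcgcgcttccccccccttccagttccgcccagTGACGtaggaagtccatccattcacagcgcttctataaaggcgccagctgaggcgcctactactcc
Fosb, chr7:19310052-19310295, minus strand: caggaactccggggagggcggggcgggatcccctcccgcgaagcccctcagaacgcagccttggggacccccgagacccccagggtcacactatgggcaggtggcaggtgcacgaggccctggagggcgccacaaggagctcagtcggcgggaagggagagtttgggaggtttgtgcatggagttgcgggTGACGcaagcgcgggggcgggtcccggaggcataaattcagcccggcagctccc
Junb, chr8:84978749-84978998, minus strand: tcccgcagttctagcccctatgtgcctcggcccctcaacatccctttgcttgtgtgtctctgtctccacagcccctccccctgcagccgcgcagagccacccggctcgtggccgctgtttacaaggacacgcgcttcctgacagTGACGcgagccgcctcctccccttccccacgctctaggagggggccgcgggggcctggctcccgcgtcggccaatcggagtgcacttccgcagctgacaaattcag
Egr2, chr10:67537619-67537868, plus strand: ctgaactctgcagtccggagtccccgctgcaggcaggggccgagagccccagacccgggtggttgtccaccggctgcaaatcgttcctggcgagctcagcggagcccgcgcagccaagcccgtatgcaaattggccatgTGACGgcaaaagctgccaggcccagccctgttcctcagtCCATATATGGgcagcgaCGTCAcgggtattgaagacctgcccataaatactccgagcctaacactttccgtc
Nr4a1, chr15:101266596-101266845, plus strand: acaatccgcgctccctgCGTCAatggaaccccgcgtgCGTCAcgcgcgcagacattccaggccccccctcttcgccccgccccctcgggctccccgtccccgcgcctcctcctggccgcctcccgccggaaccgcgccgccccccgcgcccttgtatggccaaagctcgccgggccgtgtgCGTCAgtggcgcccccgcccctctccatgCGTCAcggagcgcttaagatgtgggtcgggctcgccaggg
Npas4, chr19:4990126-4990155, minus strand: ttcgaCGTCAcgggaTGACGtcggaagtct

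The windows printed for these 6 genes each held at least 1 CRE core, a motif found in 20.8% of 32851 windows of that length. Fos had 2, beginning 129 and 66 bases before the start, with TATAAA 33 bases before it. Fosb had 1 at 60 bases and Junb 1 at 106 bases before the start, Nr4a1 had 4, and Npas4 had 2, at 179 and 169 bases. The Egr2 window had 2, at 111 and 55 bases, on either side of a CArG box that began 72 bases before the start; a CArG box was in 1.63% of windows. Of the 5 Egr2 windows, 3 overlapping ones held both motifs, 1 held a CArG box and no CRE core, and 1 held neither. A full CRE (1.79% of windows), an EGR site (0.612%) or an AP-1 site (7.81%) was in none of the members' windows. These are matches of letters, not measured binding. Sequence farther than 250 bases before a start was not searched, nor any of Egr1, Egr3, Ier2 and Arc, so a motif not listed may lie there.

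**Figure D1:**
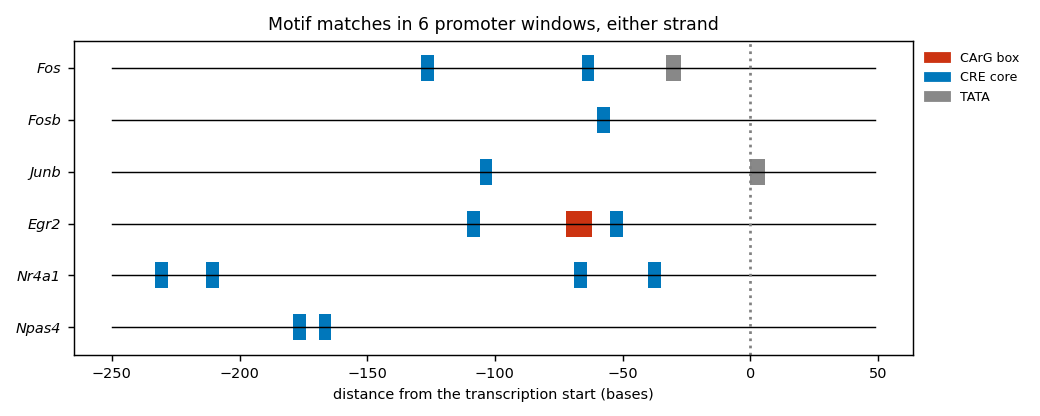
Motif matches in 6 promoter windows. The horizontal axis is the distance in bases from the RefSeq start (dotted line), each row is 1 gene, and coloured blocks mark CRE cores (blue), the CArG box (red) and TATAAA (grey) on either strand. CRE cores are in all 6 rows, from 1 in Fosb and Junb to 4 in Nr4a1, and within these windows the CArG box is in Egr2. Sequence farther upstream was not searched.

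Gene counts per library ran from 9362215 (Kir2.1 P8 replicate 2) to 12478838 (Kir2.1 P4 replicate 2). Levels are in CPM, each count scaled to the library's total of gene counts after TMM normalization. Kcnj2, the mouse gene of Kir2.1, ran from 2.45 to 17.2 CPM over the libraries; the transgene is human, so it could not check the labels. Pou4f2, which encodes Brn3b, was at 20.4 and 13.3 CPM in WT and 9.75, 4.67 and 13.4 CPM in Kir2.1 at P4, and between 2.67 and 6.37 CPM at P8. All 8 ganglion cell markers reached 1 CPM in at least 1 library, but so did all 6 rod, 5 amacrine, 4 Mueller glia and 6 microglia markers. Within WT P8, replicates 1, 2 and 3 stood apart from each other: their 6 rod markers summed to 534, 2150 and 5011 CPM, against 4463 to 4845 CPM in Kir2.1 P8. The 2 WT P4 libraries differed too: in replicates 1 and 2 the rod markers summed to 147 and 848 CPM, 5 bipolar markers to 101 and 281 CPM and 4 dividing cell markers to 2245 and 810 CPM. Kir2.1 P8 replicate 2 had 31325 genes detected, against 22609 to 24591 in the other 10 libraries.

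Per kilobase of exon, Egr1 and Fos were the most abundant members and Arc and Egr3 the least. The mean over 11 libraries was 51.9 CPM per kb for Egr1, 43.4 for Fos, 19.3 for Ier2, 11.9 for Junb, 6.12 for Nr4a1, 5.57 for Fosb, 1.78 for Npas4, 1.61 for Egr2, 0.971 for Arc and 0.728 for Egr3. The order was firm for some neighbours and not for others. Fos lay above Ier2, and Ier2 above Junb, in all 11 libraries. Nr4a1 lay above Fosb, and Npas4 above Egr2, in 6 of 11 libraries. Counts behind these levels ran from 1129 to 6240 per library for Egr1, but from 11 to 59 for Arc and from 1 to 194 for Egr3, so the last 2 were the least precisely measured.

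The AP-1 genes come first. Fos (ENSMUSG00000021250, GRCm38 chr12:85473890-85477273, plus strand) encodes the prototype partner of Jun proteins in the AP-1 factor. At P4 the WT libraries had 85.0 and 56.8 CPM, and Kir2.1 had 76.2, 117 and 87.5 CPM, in replicate order here and throughout. The P8 libraries had 59.6, 68.2 and 271 CPM in WT, against 179, 37.9 and 83.6 CPM in Kir2.1. The P4 libraries lay close together, while 1 WT library and 1 Kir2.1 library stood high at P8. Group means were 70.9 ± 19.9 (SD, n = 2) and 93.6 ± 21.1 (n = 3) CPM for WT and Kir2.1 at P4, and 133 ± 120 and 100.2 ± 72.0 (n = 3 each) at P8, and all groups overlapped. Without replicate 3 the WT P8 mean was 63.9 CPM (n = 2), below that of Kir2.1 P8.

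Fosb (ENSMUSG00000003545, chr7:19302696-19310051, minus strand), whose product and its truncated form delta-FosB also pair with Jun proteins, varied most after Egr3. It was at 20.2 and 13.4 CPM in WT and at 27.9, 43.4 and 23.4 CPM in Kir2.1 at P4. At P8 the values were 14.9, 13.8 and 122 CPM in WT and 73.9, 6.98 and 23.0 CPM in Kir2.1. The Kir2.1 P4 libraries all lay above both WT P4 libraries, and WT P8 replicate 3 was at 8.49 times the mean of the other two WT P8 libraries. Its ratio to Fos was not constant: the Fosb level per kilobase was 0.169 times that of Fos in WT P8 replicate 3 and 0.155 times in Kir2.1 P8 replicate 1, against 0.0693 in Kir2.1 P8 replicate 2 and 0.0760 in WT P8 replicate 2.

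Junb (ENSMUSG00000052837, chr8:84974484-84978718, minus strand) encodes a Jun-family partner that can restrain c-Jun. It was at 19.9 and 15 CPM in WT and at 28.3, 24.5 and 38.8 CPM in Kir2.1 at P4, without overlap. At P8 the values were 9.79, 17.2 and 65.5 CPM in WT and 45.6, 11.3 and 25.9 CPM in Kir2.1. The same 2 P8 libraries were high as for Fos. The strand setting of the counting is not given in the sources used here, and Junb overlaps Prdx2 on the other strand, which had 20599 counts in all against 3546 for Junb, so reads from one may be counted for the other.

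Ier2 (ENSMUSG00000053560, chr8:84661331-84662852, minus strand), a short nuclear protein induced by serum and growth factors, was at 31.0 and 17.9 CPM in WT and at 36.2, 34.6 and 29.4 CPM in Kir2.1 at P4. It was at 13.4, 17.0 and 64.6 CPM in WT and at 41.0, 13 and 25.4 CPM in Kir2.1 at P8. The P4 groups overlapped at 1 library, WT replicate 1, and the P8 pattern was that of Fos and Junb.

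The Egr genes encode zinc-finger factors that bind GC-rich sites. Egr1 (ENSMUSG00000038418, chr18:34859823-34864984, plus strand), the family member most used as an activity marker, was at 174 and 132 CPM in WT and at 229.9, 298 and 223 CPM in Kir2.1 at P4, without overlap. At P8 the values were 113, 180.0 and 507 CPM in WT and 356, 118 and 229 CPM in Kir2.1. Its group means ran in the order WT P8 (267 ± 211 CPM, SD, n = 3), Kir2.1 P4 (250.2 ± 41.7, n = 3), Kir2.1 P8 (234 ± 119, n = 3) and WT P4 (153 ± 30.2, n = 2), and each pair of neighbours in that order overlapped. That order turned on WT P8 replicate 3: without it WT P8 was the lowest group, at 146 ± 47.5 CPM (SD, n = 2).

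Egr2 (ENSMUSG00000037868, chr10:67535475-67542188, plus strand), known for Schwann cell myelination and hindbrain patterning, was low. It was at 8.54 and 3.8 CPM in WT and at 8.64, 6.90 and 7.77 CPM in Kir2.1 at P4. The P8 libraries had 3.38, 2.04 and 6.58 CPM in WT and 5.46, 2.40 and 4.63 CPM in Kir2.1. The 3 Kir2.1 P8 libraries lay below all 3 Kir2.1 P4 libraries, and no other pair of groups compared here was separate for this gene.

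Egr3 (ENSMUSG00000033730, chr14:70077203-70082614, plus strand), a target of sustained activity signalling in neurons, had the lowest count of any member in a library. It was at 2.56 and 0.507 CPM in WT and at 3.71, 2.76 and 1.05 CPM in Kir2.1 at P4. At P8 the values were 0.0915 CPM (1 count), 1.44 and 15.8 CPM in WT and 2.98, 0.938 and 3.48 CPM in Kir2.1. WT P8 replicate 3 was far above the rest, at 20.5 times the mean of the other two WT P8 libraries.

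Nr4a1 (ENSMUSG00000023034, chr15:101254269-101274795, plus strand) encodes the orphan nuclear receptor Nur77. It was at 9.82 and 15.2 CPM in WT and at 17.5, 18.2 and 12.6 CPM in Kir2.1 at P4. The P8 libraries had 18.0, 33.0 and 46.0 CPM in WT and 27.1, 14.7 and 24.0 CPM in Kir2.1. All 3 WT P8 libraries lay above both WT P4 libraries, which held for no other member. Group means ran from 12.5 ± 3.8 CPM (SD, n = 2) in WT P4 through 16.1 ± 3.1 in Kir2.1 P4 and 21.9 ± 6.5 in Kir2.1 P8 to 32.3 ± 14 in WT P8 (n = 3 each), and neighbouring groups in that order overlapped.

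Npas4 (ENSMUSG00000045903, chr19:4984355-4990316, minus strand), a neuronal bHLH-PAS factor induced by membrane depolarization and calcium, was the steadiest member. It was at 8.28 and 7.94 CPM in WT and at 8.64, 6.51 and 6.38 CPM in Kir2.1 at P4. The P8 libraries had 5.21, 9.68 and 6.25 CPM in WT and 7.44, 4.79 and 9.98 CPM in Kir2.1. Its highest library was 2.08 times its lowest, against 7.15 times for Fos and 17.4 times for Fosb, and WT P8 replicate 3 was 9th highest of 11. Arc (ENSMUSG00000022602, chr15:74669083-74672570, minus strand), whose protein promotes removal of AMPA receptors from synapses, was at 2.48 and 3.21 CPM in WT and at 5.48, 3.6 and 1.57 CPM in Kir2.1 at P4. It was at 3.48, 3.74 and 2.36 CPM in WT and at 2.40, 1.15 and 3.21 CPM in Kir2.1 at P8. Neither gene shared the high value of WT P8 replicate 3.

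**Figure D2:**
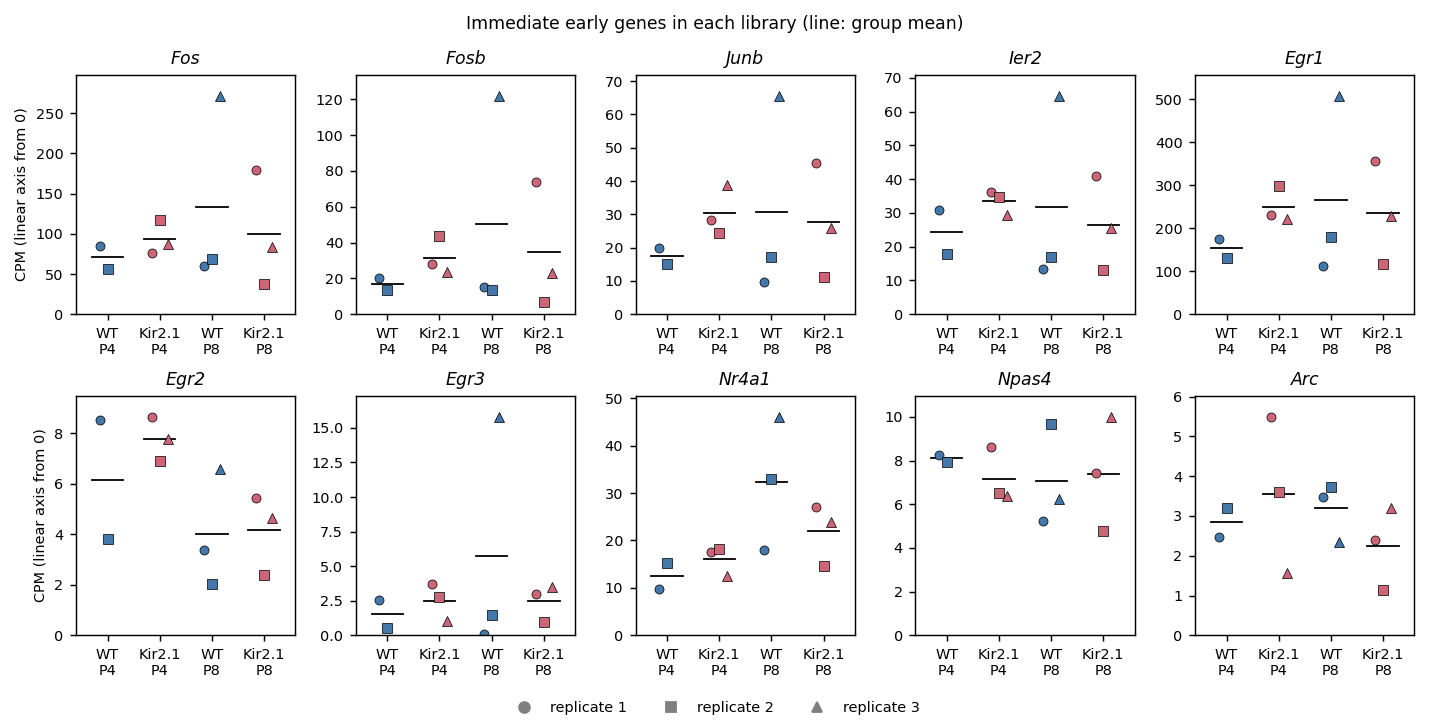
Level of each member in every library. The vertical axes are CPM on linear scales from 0, points are libraries (blue WT, red Kir2.1; circle, square and triangle for replicates 1, 2 and 3) and black lines are group means. WT P8 replicate 3 is the highest point for Fos, Fosb, Junb, Ier2, Egr1, Egr3 and Nr4a1, and not for Egr2, Npas4 or Arc.

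Across libraries, 7 of the 10 members had their highest level in WT P8 replicate 3, where 9.72% of the 18188 tested genes had theirs. Kir2.1 P8 replicate 2 was among the lowest 3 libraries for all 10 members, against 26.9% of tested genes, and was the lowest for 5, against 9.54%. WT P8 replicate 1 was among the lowest 3 for 7 members, against 31.9% of tested genes, the highest such share of the 11 libraries. The summed level of the 10 members was 362 and 266 CPM in WT P4, 443, 556 and 431 CPM in Kir2.1 P4, 241, 346 and 1107 CPM in WT P8, and 741, 211 and 433 CPM in Kir2.1 P8. At P8 the sums of both genotypes overlapped, and each genotype had 1 library far above its others.

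The members differed in how closely they followed each other over the libraries. On log2(CPM + 0.5), Pearson's r of each member with the mean standardized level of the other 9 was 0.94 for Egr1, 0.93 for Ier2, 0.91 for Fosb, 0.89 for Fos, 0.87 for Junb and 0.85 for Egr3. It was 0.53 for Egr2, 0.48 for Nr4a1, 0.27 for Npas4 and 0.19 for Arc. Without WT P8 replicate 3 and Kir2.1 P8 replicate 2, the 2 libraries farthest from the median, the first 6 were between 0.73 (Fos) and 0.92 (Egr1), and Nr4a1 was at 0.11 and Arc at -0.08. The Spearman values over the 11 libraries were 0.95 for Egr1, 0.86 for Fos, 0.23 for Npas4 and 0.05 for Arc. The closest pair was Fos and Fosb (r = 0.98), and the least alike pair was Egr2 and Nr4a1 (r = -0.25). With group means subtracted, Nr4a1 was at 0.78 and Egr2 at 0.71, while Npas4 (0.37) and Arc (0.16) stayed low. These values describe 11 libraries that fall in 4 groups and share their scaling, and carry no test. Counts per library were 11 to 59 for Arc and 46 to 114 for Npas4, but also 1 to 194 for Egr3. The part of counting noise in the low values was not tested.

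Outside the 10 members, the tested genes whose profile was most like the members' mean were searched among 15980 genes with a mean of at least 1 CPM. Over the 11 libraries they were Klf2 (r = 0.91), a zinc-finger factor, Zfp36 (0.88), which destabilizes AU-rich mRNAs, Dusp1 (0.87), a phosphatase of MAP kinases, Becn1 (0.87), an autophagy protein, Brd2 (0.86), a bromodomain protein, and Pno1 (0.86), a ribosome assembly factor. Likeness of profile is not size of change: Becn1 ran only from 64.4 to 80.0 CPM and Brd2 from 279 to 318 CPM. How high r would run among the best of 15980 unrelated genes was not tested. With group means subtracted they included 1810030O07Rik (0.97), Nol7 (0.96), Gm28437 (0.95), Ccn1 (0.94) and mt-Tf (0.94). Zfp36 was at 8.69, 6.20 and 52.1 CPM in WT P8 replicates 1 to 3 and at 30.9, 2.60 and 15.9 CPM in Kir2.1 P8. Ccn1, which encodes a secreted matrix protein, was at 8.96, 16.7 and 67.1 CPM and at 30.8, 7.71 and 22.0 CPM in the same order. Both followed the order of Fos among the Kir2.1 P8 libraries, with replicate 1 highest and replicate 2 lowest. They were picked for likeness to the members, so that order is no separate observation.

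Other measures also differed between these libraries. Hspa1a and Hspa1b, near-identical inducible heat shock genes that share reads, were at 1.95 and 1.14 CPM in WT P8 replicate 3. They ran from 21.6 to 128 CPM and from 25.3 to 147 CPM in the other 10 libraries, so the library with the most Fos had the least of both. Of the other 10 heat shock genes of the list, 2 were also lowest in that library, with values near those elsewhere: Hsp90aa1 at 217 CPM (218 to 313 CPM elsewhere) and Hspe1 at 15.3 CPM (19.2 to 29.5 CPM elsewhere). Dnajb1 was highest there, at 44.7 CPM. The 6 microglia markers summed to 64.3, 99.3 and 101 CPM in WT P8 and to 208, 60.1 and 103 CPM in Kir2.1 P8, and to 225 and 127 CPM in WT and 239, 174 and 272 CPM in Kir2.1 at P4. The 8 ganglion cell markers summed to 141, 203 and 68.8 CPM in WT P8 and to 145, 99.0 and 115 CPM in Kir2.1 P8, and to 1100 and 697 CPM in WT and 508, 172 and 550 CPM in Kir2.1 at P4. The 7 vascular markers summed to 493, 376 and 319 CPM in WT P8 and to 508, 349 and 320.1 CPM in Kir2.1 P8. Replicate 1 was thus highest in both genotypes, and WT P8 replicate 3, with the most Fos, was lowest. Kdr alone was at 276 CPM there and at 348 CPM in Kir2.1 P8 replicate 1. The 5 bipolar markers summed to 357, 672 and 1108 CPM in WT P8 and to 754, 896 and 708 CPM in Kir2.1 P8. The 5 amacrine markers had 2923, 1948 and 1019 CPM, and 1417, 839 and 1495 CPM. The 4 cone markers had 308, 387 and 149 CPM, and 251, 284 and 231 CPM, in the same order. Kir2.1 P8 replicate 2 had the most of the pigment epithelium markers (14.5 CPM, against 0.274 to 2.70 CPM elsewhere) and of the erythrocyte markers (19.3 CPM, against 0.0849 to 6.62 CPM). No marker of these lists except 1 of pigment epithelium and 2 of erythrocytes was at 0 throughout a group. The part of cell makeup, heat shock or dissociation in the members' levels was not tested.

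**Figure D3:**
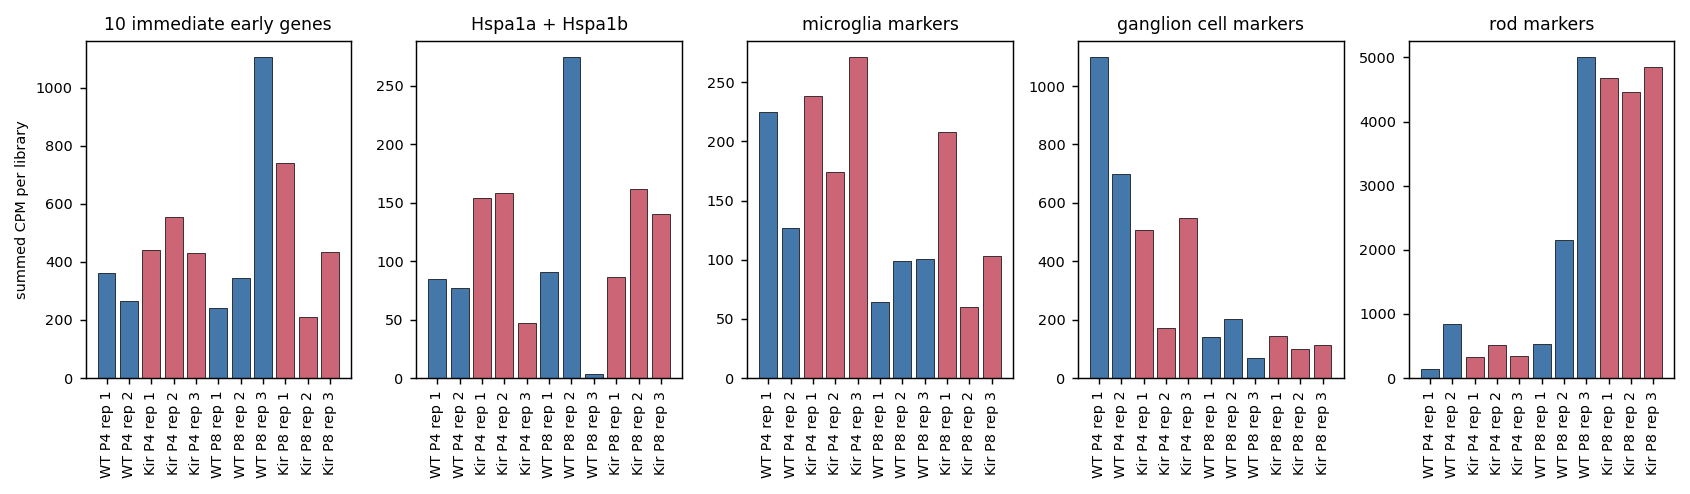
Summed CPM in each library of the 10 members, of Hspa1a and Hspa1b, and of microglia, ganglion cell and rod markers. The vertical axes are CPM on linear scales from 0, and each bar is 1 library (blue WT, red Kir2.1). The members are highest in WT P8 replicate 3 (1107 CPM), where Hspa1a and Hspa1b are lowest and the rod markers highest.

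At P4, the comparison of genotypes asked which transcripts differ when ganglion cells carry Kir2.1. No member differed by the test. In log2 fold change of Kir2.1 over WT, 9 of 10 were above 0, as were 51.3% of all genes tested. Members that follow each other over the libraries are not separate observations, so this count carries no test. The median of the 10 was 0.43, against 0.01 over all genes tested. With edgeR's quasi-likelihood test, adjusted over all genes, 0 of 10 members and 0% of genes were called at an adjusted p under 0.05, and 0 members were under an unadjusted p of 0.05, against 7.22% of genes. DESeq2 also called 0 members, and 0.225% of genes. With the P4 libraries fitted alone, 3 members (Egr1, Junb and Fosb) were under an unadjusted p of 0.05, as were 8.71% of genes. Their SEs were then 0.17, 0.24 and 0.30 and their edgeR adjusted p 0.512, 0.519 and 0.531. Fosb, Junb and Egr1 (3 members) were higher in all Kir2.1 than in all WT libraries, which held for 12.4% of genes. Egr1 had a log2 fold change of 0.71 ± 0.54 (SE; 95% interval -0.47 to 1.89; edgeR adjusted p = 0.783). Junb had 0.81 ± 0.69 (edgeR adjusted p = 0.804) and Fosb 0.91 ± 0.97 (edgeR adjusted p = 0.846). The other positive values ran from 0.32 (Arc) to 0.70 (Egr3), and Npas4 was at -0.18 ± 0.35, with an interval of -0.93 to 0.58 that leaves out a change of 1 log2 unit in either direction. The intervals of Egr3 (-2.13 to 3.54) and Fosb (-1.20 to 3.03) were the widest. Without the filter on low counts edgeR called Fosb and Egr1 (adjusted p = 0.00619 and 0.00197). Of the 18188 genes, 1.86% were called in that way. Over 17 alternatives the adjusted p ran from 0.00619 to 0.970 for Fosb and from 0.00197 to 0.958 for Egr1. Without WT P4 replicate 2, 7 of 10 members were above 0 (median 0.33), and without WT P4 replicate 1, 9 were (median 0.91).

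In the authors' deposited table for P4, 9 of the 10 members were also above 0, with a median log2 fold change of 0.21. Ier2 was called there, at 0.91 ± 0.26 (SE) with an adjusted p of 0.0250, where 2.27% of the 13830 genes with an adjusted p were called. Ier2 had 0.45 ± 0.60 in the fit to all 11 libraries (edgeR adjusted p = 0.875). In the authors' deposited table Nr4a1 was the negative member, at -0.37 ± 0.33 (adjusted p = 0.783), against 0.37 ± 0.38 in the edgeR fit. Which libraries entered the authors' deposited table is not given in the sources used here. Without WT P4 replicate 1 the edgeR value of Ier2 was 0.90, and without WT P4 replicate 2 it was 0.11, so the edgeR value depended on the WT library used. This does not account for the authors' deposited table. Its values of Nr4a1 (-0.37), Fos (0.01) and Egr1 (0.25) lay below every edgeR value with 1 library left out. Those ran from 0.08 to 0.72 for Nr4a1, 0.14 to 0.72 for Fos and 0.52 to 0.92 for Egr1.

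At P8, the same comparison gave no called member either. Of the 10 members, 8 were below 0, with a median log2 fold change of -0.33 against 0.00 over all genes tested. With edgeR's quasi-likelihood test, 0 of 10 members and 0% of genes were called, 0 members were under an unadjusted p of 0.05 (6.82% of genes were), and DESeq2 called 0 members and 0.0165% of genes. No member's groups were separate, which held for 10.6% of genes in either direction. Nr4a1 was at -0.56 ± 0.33 (SE; 95% interval -1.27 to 0.15; edgeR adjusted p = 0.702), Egr3 at -1.22 ± 1.09 (edgeR adjusted p = 0.785) and Fosb at -0.53 ± 0.83 (edgeR adjusted p = 0.889). Fos was at -0.41, Arc at -0.49, Ier2 at -0.25, Egr1 at -0.19 and Junb at -0.16, and Egr2 (0.06) and Npas4 (0.07) were closest to 0.

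The direction at P8 rested on WT P8 replicate 3. Without it, 7 of 10 members were above 0 with a median of 0.67 (0.02 over all genes), and 0 of 10 were called, against 1.21% of genes. Fosb then had 1.28 ± 0.68 (SE; edgeR adjusted p = 0.330), Junb 1.03 ± 0.46 (0.237, the lowest adjusted p), Ier2 0.81 ± 0.38, Egr1 0.68 ± 0.36, Fos 0.65 ± 0.46, Egr2 0.63 ± 0.45 and Egr3 1.66 ± 0.98. Nr4a1 (-0.22 ± 0.32) and Arc (-0.67 ± 0.54) stayed below 0, and Npas4 was at -0.01 ± 0.35. WT P8 replicates 1 and 2, the libraries then left, had rod marker sums of 534 and 2150 CPM, against 4463 to 4845 CPM in Kir2.1 P8. WT P8 replicate 3 had 5011 CPM, so leaving it out compared genotypes that differed more in rod markers. The part of that in the signs was not tested. In the authors' deposited table for P8, 8 of 10 were above 0 with a median of 0.68. Values in the authors' deposited table lay near those of edgeR without WT P8 replicate 3, as for Fos (0.65 in both) and Egr1 (0.67 and 0.68), and whether that library entered the table is not given, so it is no separate support. That table had Fosb at 1.19 ± 1.09, Junb at 1.22 ± 0.76, Ier2 at 0.77 ± 0.37 (adjusted p = 0.220) and Nr4a1 at -0.21 ± 0.32 in the authors' own fit, and none of the members with an adjusted p in the authors' deposited table was called, where 7.27% of 13396 genes were. Leaving out Kir2.1 P8 replicate 2, the library at the other end, gave 5 members above 0 and a median of 0.02. Leaving out Kir2.1 P8 replicate 1 gave 1 above 0 and a median of -0.73.

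**Figure D4:**
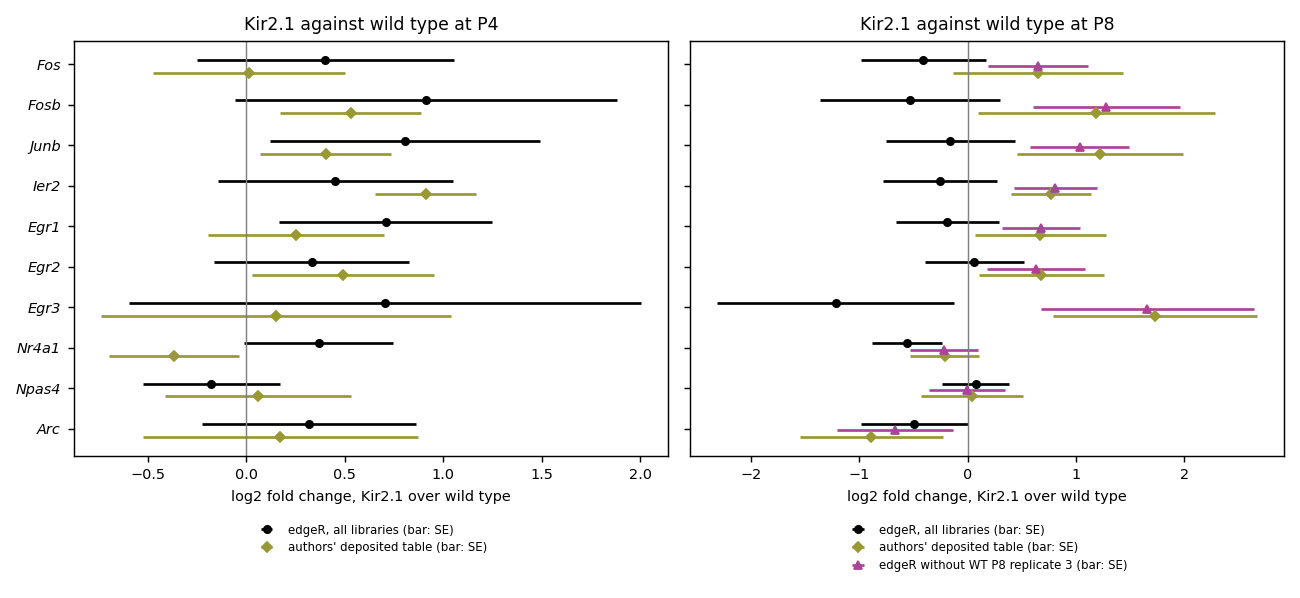
Log2 fold change of Kir2.1 over WT for each member at P4 (left) and P8 (right). Points are estimates and bars 1 SE: black, edgeR with all libraries; olive, the authors' deposited table; purple, edgeR without WT P8 replicate 3. At P8 the black points of 8 members lie below 0, and 7 of the 10 purple points lie above it.

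The difference between the genotype effects at P8 and P4 was tested in the same fit. It was below 0 for 9 of 10 members, with a median of -0.85, and 0 of 10 members and 0% of genes were called with edgeR; 0 members were under an unadjusted p of 0.05 (3.09% of genes), and DESeq2 called 0 members and 0% of genes. Nr4a1 had the smallest unadjusted p, with a difference of -0.92 ± 0.50 (SE; edgeR adjusted p = 0.9997). Without the filter on low counts edgeR called Fosb and Egr1 here too (adjusted p from 0.00048 and 0.00970 to 1.0 over 16 alternatives), with 0.737% of the 18188 genes. Without WT P8 replicate 3, 7 of 10 differences were above 0 and the median was 0.24. These differences share the WT and Kir2.1 libraries with the values above and are not independent of them.

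Between ages in WT, P8 against P4, 0 of 10 members were called with edgeR, against 4.39% of genes, and 8 were above 0 with a median log2 fold change of 0.81 (0.03 over all genes). Nr4a1 came closest, at 1.37 ± 0.38 (SE; 95% interval 0.54 to 2.21; edgeR adjusted p = 0.0676), with all 3 P8 libraries above both P4 libraries, as in 14.2% of genes. It was the 1 member under an unadjusted p of 0.05, as were 19.6% of genes. DESeq2 called it (adjusted p = 0.00615), with 10.3% of genes, as did edgeR without WT P8 replicate 1 (0.0113), with 7.19% of genes. Over 17 alternatives its adjusted p ran from 3.63e-06 to 0.662 and its value from 1.03 to 1.72; it was at 1.09 (adjusted p = 0.662) without WT P4 replicate 1 and 1.72 (0.0679) without WT P4 replicate 2. These 5 members had wider errors than Nr4a1: Egr3 was at 1.91 ± 1.31, Fosb at 1.58 ± 0.99, Fos at 0.91 ± 0.66, Junb at 0.82 ± 0.69 and Egr1 at 0.80 ± 0.54. Without the filter on low counts edgeR called Nr4a1 and these 5, with 11.3% of the 18188 genes. Without WT P8 replicate 3, 2 members were above 0, Nr4a1 and Arc, and the median was -0.19.

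Between ages in Kir2.1, 0 of 10 members were called with edgeR, while 16.7% of genes were, and 0 members were under an unadjusted p of 0.05 (29.7% of genes). DESeq2 also called 0 members, and 21.7% of genes. With the Kir2.1 libraries fitted alone, 1 member (Egr2, edgeR adjusted p = 0.0677) was under an unadjusted p of 0.05, as were 36.6% of genes; over 17 alternatives its adjusted p ran from 0.0677 to 0.467. The median was -0.05 (0.00 over all genes). Egr2 had the smallest p, at -0.89 ± 0.45 (SE; 95% interval -1.87 to 0.09; edgeR adjusted p = 0.211), with the P8 libraries below all P4 libraries, as in 18.7% of genes. Arc was at -0.64 ± 0.49 and Nr4a1 at 0.45 ± 0.33. Fosb (0.14 ± 0.83), Fos (0.10 ± 0.58), Npas4 (0.05 ± 0.31), Egr1 (-0.09 ± 0.47) and Junb (-0.14 ± 0.60) were near 0, Egr3 was at -0.01 ± 1.12 and Ier2 at -0.33 ± 0.53. Without Kir2.1 P8 replicate 2, 7 members were above 0 and the median was 0.25, and without Kir2.1 P8 replicate 1, 2 were above 0 and it was -0.66.

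Genes around the members in the same response were read from 5 lists. In both genotype comparisons, in their difference and between ages in WT, 0 genes of any list were called with all libraries. Of 16 other immediate early transcription factors tested, 10 were above 0 at P4 (median 0.22) and 6 at P8 (median -0.20) in Kir2.1 over WT. Without WT P8 replicate 3, 9 of the 15 still tested were above 0 at P8 (median 0.47). Of 14 feedback and effector genes, 6 were above 0 at P8 with all libraries (median -0.03) and 11 without that library (median 0.64), when 2 were called: Btg2, an antiproliferative factor (1.39, edgeR adjusted p = 0.0435), and Trib1 (0.96, 0.0321). Of all genes 1.21% were called without that library. The WT P8 libraries then left had rod marker sums of 534 and 2150 CPM, against 4463 to 4845 CPM in Kir2.1 P8. The part of that in these calls was not tested. Between ages in Kir2.1, where 16.7% of all genes were called, 3 of the 16 fell: Nr4a2, a paralog of Nr4a1 needed for dopamine neurons, by 1.38 on the log2 scale (SE 0.24; edgeR adjusted p = 0.00237), Myc by 1.62 (0.0122) and Klf6 by 1.13 (0.0240). Nr4a2 was at 66.7, 53.9 and 55.5 CPM in Kir2.1 P4 and at 28.4, 18.8 and 20.5 CPM in Kir2.1 P8, without overlap, whereas Nr4a1 did not pass the test in that comparison. Of the 14 feedback and effector genes, 1 rose between ages in Kir2.1: Trib1, a pseudokinase (0.86, edgeR adjusted p = 0.0345). Of 17 upstream regulators, 3 rose there: Mef2d (1.0, edgeR adjusted p = 0.00649), a calcium-responsive factor, Camk4 (0.86, 0.0133), a calmodulin kinase of CREB, and Elk1 (0.40, 0.0383), a partner of serum response factor. The 3 of 16 and 3 of 17 are near the 16.7% of all genes, and give no result about those lists. Marker sums moved with age in Kir2.1 as well: dividing cell markers were at 1824 to 2362 CPM at P4 and 76.6 to 109 CPM at P8, bipolar markers at 104 to 108 and 708 to 896 CPM, and rod markers at 320.1 to 515 and 4463 to 4845 CPM. Their part in the age differences was not tested.

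Of 9 late activity-regulated genes tested, Scg2, a secretory granule protein, rose between ages in Kir2.1 (1.71, edgeR adjusted p = 0.0327), and Rgs2, a regulator of G-protein signalling, fell by 0.64 on the log2 scale (0.0481). These 2 of 9 are near the 16.7% of all genes called there too. In Kir2.1 over WT at P4, 8 of these 9 were below 0 with a median of -0.52, where 9 of the 10 immediate early members were above 0. Scg2 had the smallest unadjusted p of the late genes there (-1.57 ± 0.53, SE, edgeR adjusted p = 0.677). Genes read in the same libraries are not separate observations, so these counts of signs carry no test. At P8, 6 of 9 were below 0 with a median of -0.36, and of -0.50 without WT P8 replicate 3. Of 12 heat shock genes, 0 were called in any comparison. Ganglion cell marker sums, given above, were lower in all Kir2.1 P4 than in both WT P4 libraries, and the part of that in the late genes' values was not tested.

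**Figure D5:**
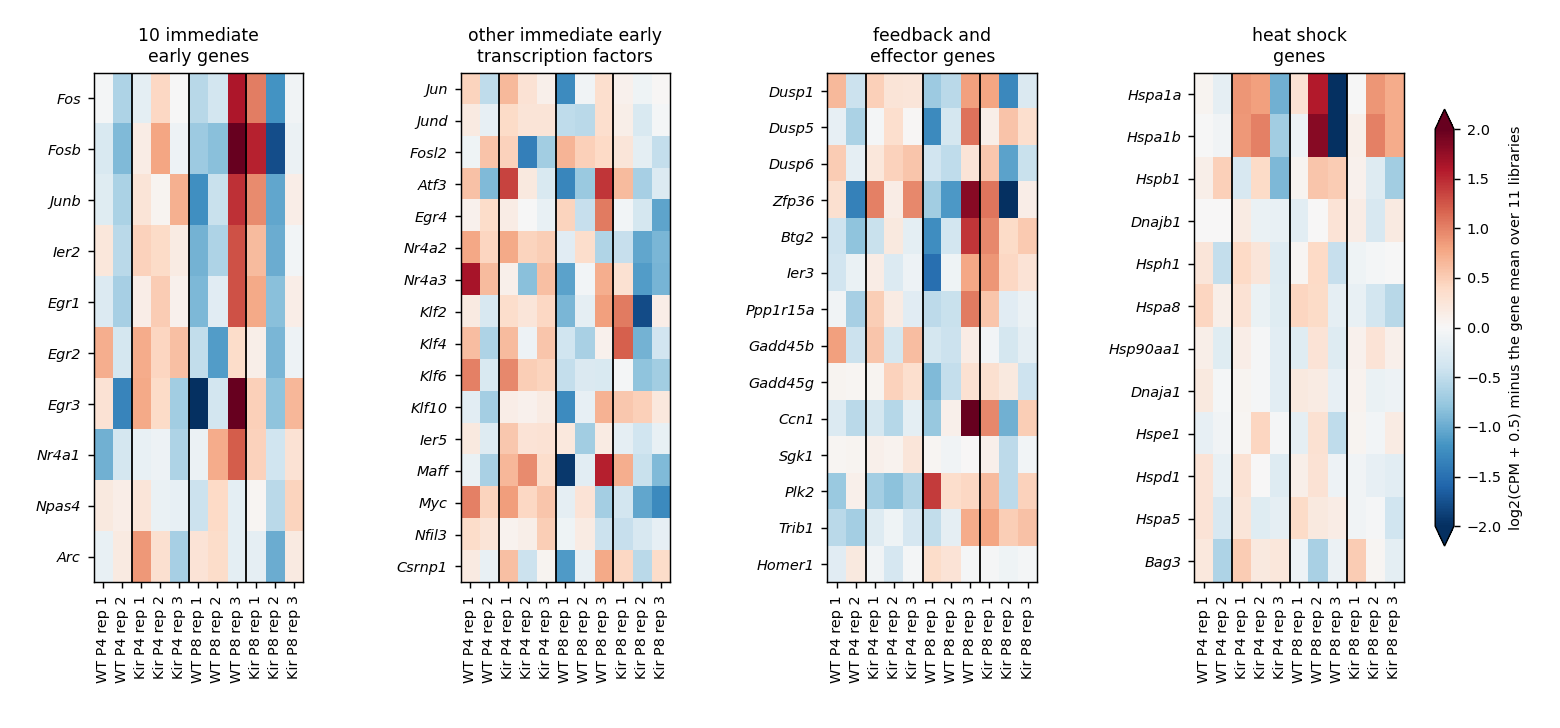
The 10 members beside other immediate early transcription factors, feedback and effector genes and heat shock genes. Colour is log2(CPM + 0.5) minus the gene's mean over 11 libraries (red higher, blue lower, ends of the scale at 2 and -2), columns are libraries and black lines part the 4 groups. The WT P8 replicate 3 column is red for most members and for Zfp36, Btg2, Ccn1, Maff and Atf3, and deep blue for Hspa1a and Hspa1b.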

How the data were processed

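Per the submitters' processing notes, reads were handled with cutadapt 1.18, STAR 2.5.0c, SAMtools 1.9, bedtools 2.26.0 and HTSeq 0.6.1, and the build was mm10. The authors deposited whole-number counts per Ensembl gene for each library. The 6 records per library that are not genes, such as alignments with no feature or not unique, were left out. They held 74.6% to 79.8% of a library's summed counts. Per the file headers, the authors' deposited tables for each age hold log2 fold changes, their errors, a test score and raw and adjusted p-values.

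Counts were fitted in edgeR 4.0.16 (R 4.3.3) with filterByExpr (18188 genes), TMM factors from 0.964 to 1.05 and a quasi-likelihood model of 4 group means over all 11 libraries (common biological coefficient of variation 0.247). Adjustment was by Benjamini-Hochberg over the 18188 genes, called at an adjusted p under 0.05. The fits were tested on simulated data. Alternatives were DESeq2 1.42.0 (size factors and test), other filters, the compared libraries alone, a replicate block and leaving out each library. Groups came from titles and coordinates from GENCODE M21 (GRCm38). All members, list genes that passed, 6 genes most alike, Kcnj2 and Pou4f2 were named; 1 of the genes most alike is not reported here. Members and lists were chosen with earlier results of these data known.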

Additional observations from a re-analysis of the deposited data

How the results depend on the processing

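Under 17 alternatives to each comparison (16 for the difference between ages), no member was called in Kir2.1 against wild type at P8 or between ages in Kir2.1, while members were called elsewhere. Without a filter on low counts edgeR called 2 members at P4 (Fosb and Egr1, of 339 genes called), 0 at P8 (of 447), 2 in the difference between ages (Fosb and Egr1, of 136) and 6 between ages in wild type (Fos, Fosb, Junb, Egr1, Egr3 and Nr4a1, of 2058). The SE of Fosb at P4 was then 0.22 in place of 0.97; the cause was not tested. The DESeq2 test called 33 genes at P4, 3 at P8, 0 in the difference, 3793 between ages in Kir2.1 and 1580 between ages in wild type, among these last 1 member, Nr4a1. Fitting the compared libraries alone gave 113 genes between ages in wild type. Leaving out 1 library gave 0 to 6 genes at P4 (6 without WT replicate 1), 0 to 219 at P8 (219 without WT replicate 3), 0 to 1 in the difference, 163 to 1338 between ages in wild type, with 0 to 1 members called there, and 1764 to 3677 between ages in Kir2.1. At P4, leaving out 1 library gave log2 fold changes from -0.12 to 0.67 for Arc, -0.13 to 1.02 for Egr2 and -0.031 to 2.28 for Egr3. At P8 the ranges were -1.13 to 0.65 for Fos, -1.74 to 1.28 for Fosb, -0.73 to 1.03 for Junb, -0.72 to 0.81 for Ier2, -0.62 to 0.68 for Egr1, -0.25 to 0.63 for Egr2, -1.79 to 1.66 for Egr3 and -0.20 to 0.37 for Npas4. In the difference they were -1.54 to 0.25 for Fos, -2.66 to 0.37 for Fosb, -1.54 to 0.23 for Junb, -1.18 to 0.36 for Ier2, -0.96 to 0.30 for Egr2, -3.49 to 0.96 for Egr3 and -0.023 to 0.55 for Npas4. Between ages in wild type they were -0.15 to 1.24 for Fos, -0.23 to 2.02 for Fosb, -0.37 to 1.23 for Junb, -0.69 to 0.82 for Ier2, -0.064 to 1.15 for Egr1, -1.19 to 0.074 for Egr2, -0.97 to 3.48 for Egr3 and -0.014 to 0.36 for Arc. Between ages in Kir2.1 they were -0.62 to 0.49 for Fos, -1.07 to 0.62 for Fosb, -0.71 to 0.23 for Junb, -0.53 to 0.23 for Egr1, -0.38 to 0.36 for Egr3 and -0.22 to 0.28 for Npas4.

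Nothing in the labels says what the replicate numbers share, and they were not taken as pairs: same-numbered libraries of different groups correlated between -0.08 and 0.14 in their deviations from the group means, and others between -0.15 and 0.14. For 7 of 11 libraries the nearest library of another group had the same number, a hint from the data and not the design. A fit with the replicate number as a block called 0 genes at P4, at P8 and in the difference, 558 between ages in wild type and 2929 between ages in Kir2.1, and 0 members in all 5. With the block the sign turned for Junb at P8 (0.035) and, between ages in Kir2.1, for Fos (-0.070) and Fosb (-0.23). With 2 or 3 libraries a group, the intervals of the members at P8 reached past 1 log2 unit on at least 1 side for 9 of 10, Npas4 apart, so changes of that size could be missed. Where 1 library of WT P4 was left out, the other was assumed to vary like the other groups.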
